A study of Mus musculus with 15 samples.

Results

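Histone H3 acetylation at lysine 27 (H3K27ac) and at lysine 9 (H3K9ac) was compared gene by gene in EL4 cells, a mouse T lymphocyte lymphoma line of strain C57BL/6N kept in culture without treatment. The gene window was the RefSeq gene span on GRCm38.p6 with 3 kb added on each side, and the measurements were the base pairs covered by called ChIP-seq intervals and the number of intervals in it. Of 47042 genes on the 19 autosomes, 15725 held an interval of either acetylation in at least 1 of the 4 libraries, and 11317 of these were protein-coding. ChIP-seq was performed with one antibody per mark, Abcam ab4729 for H3K27ac and Abcam ab4441 for H3K9ac, with 2 libraries each. The same line was profiled for H3K4me3, H3K36me2, H3K27me3 and chromatin accessibility (ATAC-seq), also with 2 libraries each. Those 8 lists were used only to describe the genes that the acetylation lists had placed in a class. The line is a single tumour line, and the study's methods speak of technical replicates, so p-values below measure only the spread between these libraries.

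Both modifications neutralize the charge of a lysine on the histone H3 tail and are found where transcription is active. H3K9ac is placed largely by GCN5 and PCAF and is known mainly from promoters, together with H3K4me3. H3K27ac is placed by CBP and p300, excludes Polycomb methylation of the same lysine, and is known from active enhancers as well as promoters.

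The H3K27ac libraries held 26878 and 27434 autosomal intervals over 29.8 and 30.5 Mb. The H3K9ac libraries held 19805 and 19803 intervals over 22.9 and 22.8 Mb. H3K9ac intervals were wider, with medians of 961 and 955 bp against 822 and 810 bp. The base pairs shared by both replicates, divided by those in either, came to 0.865 for H3K27ac and 0.869 for H3K9ac. The number of reads behind an interval is unknown, so the larger H3K27ac territory, the antibody and the sequencing depth cannot be told apart. In bulk chromatin, a mark present in fewer cells and a weaker mark in every cell cannot be told apart either. The cell type was checked against marker genes: an acetylation interval stood at all 10 T cell markers tested, at 2 of 7 B cell markers and at 4 of 8 myeloid markers. Of all autosomal genes 33.4% held one, and of protein-coding genes 11317 of 20665. The myeloid count is thus near the share of protein-coding genes.

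Most acetylated genes carried both marks. Both were present in all 4 libraries at 14402 genes, 91.6% of the 15725. H3K27ac without H3K9ac was found at 594 genes and H3K9ac without H3K27ac at 77, where a gene counted only if both libraries of one mark held an interval and neither library of the other did. At 120 genes H3K27ac covered far more than H3K9ac, by at least 5000 bp in the replicate unions and with the lower H3K27ac library at least 2 times the higher H3K9ac library. No gene met the mirror rule for H3K9ac. The other 652 genes were called differently by the 2 libraries of a mark. Neighbouring genes can share an interval: the 594, 77 and 120 genes lie in 529, 61 and 117 separate windows.

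**Figure D1:**
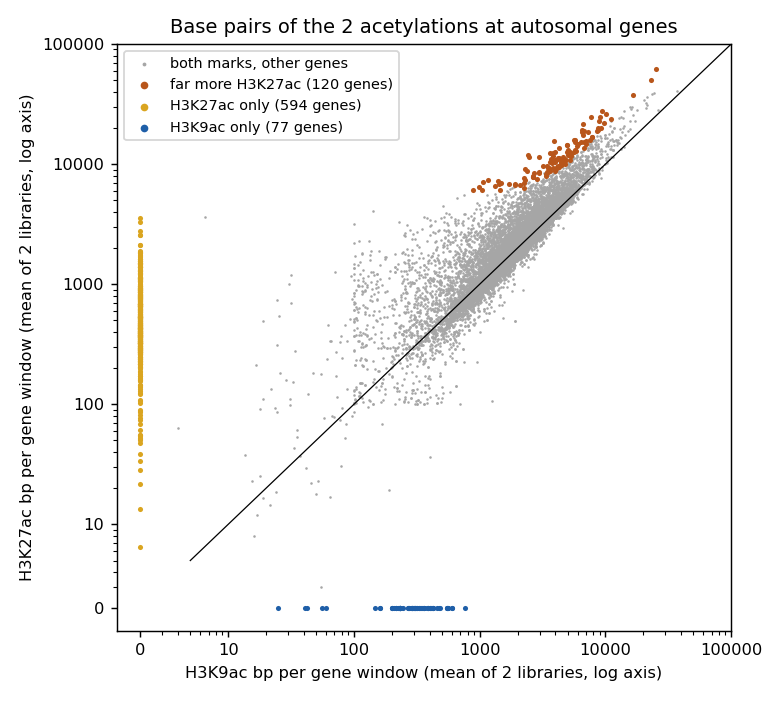
Base pairs in called intervals per gene window, H3K9ac on the horizontal and H3K27ac on the vertical axis, each the mean of 2 libraries on a log axis with 0 drawn at the edge. Each point is 1 gene, the line marks equal coverage, and the 120 genes with far more H3K27ac form the upper rim of the cloud while the 77 with H3K9ac alone all stay at low values.

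The promoter sequences shown, as examples of the classes, are the 250 bases before a RefSeq start site (GRCm38.p6), written 5′ to 3′ along the gene with CG dinucleotides in capitals. They were chosen after their values were seen, because an acetylation interval lies on each. Ikzf1 and Jazf1 are the genes with the largest H3K27ac excess, Myl10 had H3K27ac alone, and Lhx2 had H3K9ac alone. The Ikzf1, Jazf1 and Myl10 sequences lie inside the gene span, so none of them is the sequence before its first base.
Ikzf1, chr11:11685675-11685924, plus strand: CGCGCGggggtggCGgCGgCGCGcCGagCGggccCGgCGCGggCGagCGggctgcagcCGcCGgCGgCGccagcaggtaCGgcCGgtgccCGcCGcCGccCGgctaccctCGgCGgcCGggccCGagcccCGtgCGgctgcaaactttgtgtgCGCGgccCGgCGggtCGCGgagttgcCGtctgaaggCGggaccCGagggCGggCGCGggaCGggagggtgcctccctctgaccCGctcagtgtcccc
Jazf1, internal start site, chr6:52909621-52909870, minus strand: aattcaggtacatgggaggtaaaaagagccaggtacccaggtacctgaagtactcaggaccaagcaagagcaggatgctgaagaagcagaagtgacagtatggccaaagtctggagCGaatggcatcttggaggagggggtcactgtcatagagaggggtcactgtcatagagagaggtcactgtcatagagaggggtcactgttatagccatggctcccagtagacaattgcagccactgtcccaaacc
Myl10, chr5:136693426-136693675, plus strand: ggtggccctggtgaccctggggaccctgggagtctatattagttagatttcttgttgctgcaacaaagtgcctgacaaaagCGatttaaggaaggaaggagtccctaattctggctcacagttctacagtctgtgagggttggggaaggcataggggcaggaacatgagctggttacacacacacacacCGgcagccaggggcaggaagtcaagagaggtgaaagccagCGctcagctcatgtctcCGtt
Lhx2, chr2:38339031-38339280, plus strand: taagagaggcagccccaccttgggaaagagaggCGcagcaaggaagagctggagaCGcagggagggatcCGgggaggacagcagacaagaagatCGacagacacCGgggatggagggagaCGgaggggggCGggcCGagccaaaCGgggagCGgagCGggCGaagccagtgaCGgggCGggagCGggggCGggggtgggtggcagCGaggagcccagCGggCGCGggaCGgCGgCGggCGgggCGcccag
The Ikzf1 promoter holds 44 CG dinucleotides and lies wholly inside intervals of H3K27ac, H3K9ac and H3K4me3 in every library. The internal Jazf1 sequence holds 1 and lies wholly inside H3K27ac in both libraries, while H3K9ac covers 32 bp in one library and 0 in the other and H3K4me3 covers none. Myl10 holds 4, with 250 bp of H3K27ac in both libraries and no H3K9ac or H3K4me3. Lhx2 holds 25, with H3K4me3 over all 250 bp, H3K9ac over 35 and 45 bp, and no H3K27ac. Other start sites of the same genes had the same coverage by these marks at Ikzf1 and less at Jazf1, Myl10 and Lhx2. A second Ikzf1 start site (chr11:11689927-11690176, with 1 CG dinucleotide) lies wholly inside H3K27ac, H3K9ac and H3K4me3, and the outer Jazf1 start site (chr6:53068625-53068874, with 28) lies in no interval of any of them. A second Lhx2 start site (chr2:38351058-38351307, with 24) also lies in none. At Myl10, H3K27ac covered 147 and 156 bp of chr5:136692896-136693145 and none of chr5:136693927-136694176.

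The classes as a whole were compared in the same way. RefSeq promoter sequences of 300 bases (250 before and 50 after a start) were matched for 10528 of 14282 genes with both marks (the 120 left out), 362 of 594 with H3K27ac alone, 49 of 77 with H3K9ac alone and 14309 of 31317 without acetylation. The median number of CG dinucleotides, counted once per site since the motif reads the same on both strands, was 20 at genes with both marks, 19 with H3K9ac alone, 5 with H3K27ac alone and 4 without acetylation. For protein-coding genes the medians were 21, 25, 8 and 4. H3K27ac alone rarely stood at a start site: 65 of the 362 genes, 18.0%, had the interval within 1 kb of one. For H3K9ac alone it was 22 of 49, 44.9%, and at genes with both marks 84.6% for H3K27ac and 84.0% for H3K9ac.

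Genes with far more H3K27ac were long genes with many H3K27ac intervals in their interior. Their median length was 120 kb, against 16.7 kb for all genes tested, and 112 of the 120 had more H3K27ac than H3K9ac intervals in every pairing of libraries, as had 19.3% of all genes tested. Mean interval numbers were 13.1 and 13.5 for H3K27ac and 6.67 and 6.56 for H3K9ac. The union differences ran from 5021 to 37739 bp with a median of 7024 bp, and 102 of the genes were protein-coding. These values describe the class, since base pairs chose its members.

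Jazf1, a zinc finger transcription cofactor, had the largest difference: 61638 and 63124 bp of H3K27ac against 25354 and 25241 bp of H3K9ac. Ikzf1, which encodes the lymphoid transcription factor Ikaros, had 49917 and 50259 bp against 23268 and 23002 bp. Septin9, a cytoskeletal GTPase gene, had 36867 and 38355 bp against 16412 and 16526 bp. By the rule of the class, the H3K27ac libraries of all 3 are at least 2 times the H3K9ac libraries. The replicates of a mark lie close to each other. Ahnak, which encodes a giant scaffold protein, had 26754 and 28252 bp against 9590 and 9288 bp. Myo1e, a class I myosin gene, had 24308 and 24656 bp against 8030 and 7402 bp. Msra, a methionine sulfoxide reductase gene, had 25284 and 26503 bp against 10037 and 10002 bp. Among the 10 named genes of this class the ratio was widest at Myo1e, where the lower H3K27ac library was 3.03 times the higher H3K9ac library. Clec16a, an endosomal regulator of autophagy, had 23689 and 25250 bp against 9145 and 9084 bp. Immp2l, which encodes a mitochondrial inner membrane peptidase subunit, had 20458 and 22287 bp against 6913 and 6409 bp. Pip4k2a, a phosphoinositide kinase gene, had 22324 and 23494 bp against 8271 and 9546 bp. Ets1, a transcription factor of lymphoid cells, had 22381 and 24650 bp against 11061 and 10894 bp.

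**Figure D2:**
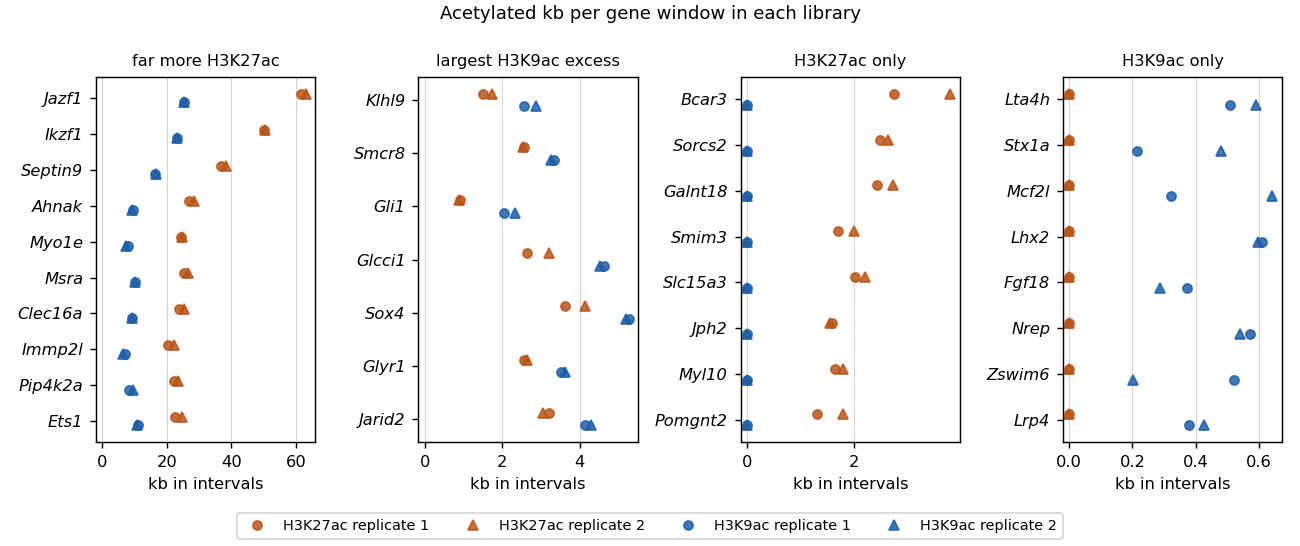
Kilobases in intervals per gene window for the named genes of each class; circles are replicate 1, triangles replicate 2, H3K27ac in orange and H3K9ac in blue. The 2 libraries of a mark lie close together in the first panel, where H3K27ac runs from 20458 bp at Immp2l to 63124 bp at Jazf1, and further apart for H3K9ac alone, where the highest value is 643 bp at Mcf2l.

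At the 10 genes, 19.2 to 37.6% of the H3K27ac base pairs lay in intervals that touched no H3K9ac interval. The lowest share was at Myo1e and the highest at Immp2l. The interior of the gene held most of the mark: at Ikzf1, 8.31% of H3K27ac base pairs and 12.8% of H3K9ac base pairs lay at gene ends, from 3 kb outside to 2 kb inside. At Jazf1, Septin9, Msra and Ets1 no interval of either mark stood at an outer gene end. Across Ikzf1, H3K27ac held 37 and 41 intervals in the gene window against 16 and 17 for H3K9ac, and 28 intervals of the H3K27ac union touched no H3K9ac. When base pairs were counted at gene ends alone, 1 gene met the rule for far more H3K27ac instead of 120. Windows of 3 kb outside and 2 kb inside each end leave little room for the 5000 bp that the rule asks for. That count therefore cannot show where the excess lies. After scaling each library to its total base pairs, 21 genes met the rule.

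**Figure D3:**
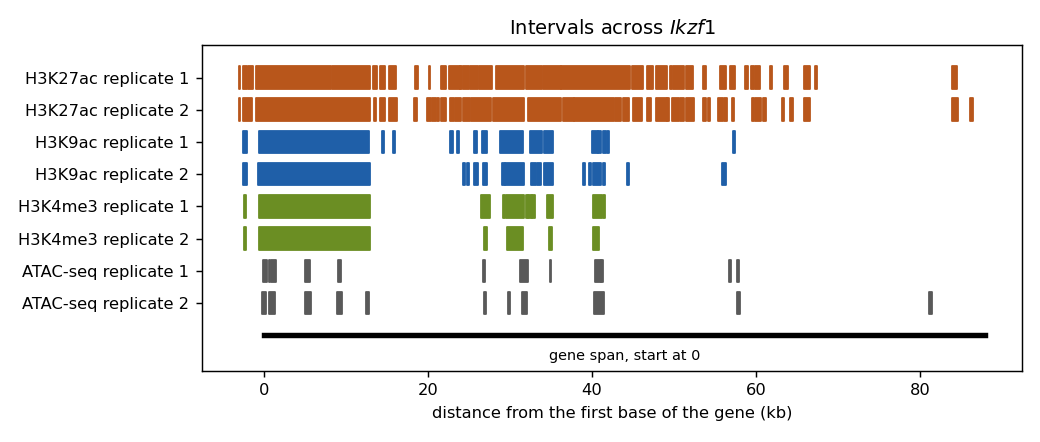
Called intervals of H3K27ac, H3K9ac, H3K4me3 and ATAC-seq in each library across Ikzf1, with the distance from the first base of the gene in kb on the horizontal axis and the gene span (88.0 kb) as a black bar. All marks share the block at the start, and H3K27ac goes on through the gene where H3K9ac and H3K4me3 are present only in patches.

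The genes nearest to the limits of the rule were Ifitm10, with a union difference of 5021 bp, and Vipr2, with 4970 bp, which missed it. For the ratio between libraries they were Osbpl3 at 2.008 times and Runx2, a Runt family transcription factor gene, at 1.997 times, which missed it with 15250 and 16707 bp of H3K27ac against 7034 and 7635 bp of H3K9ac.

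Genes of 100 kb or more stood apart from shorter genes in the difference. Limma on log2(base pairs + 500) was run for the 14943 genes with a mean of at least 200 bp over the 4 libraries, with Benjamini-Hochberg adjustment over all of them. H3K27ac covered more base pairs at 3947 genes, which is 26.4% of those tested, and H3K9ac covered more at 555, which is 3.71%. At an adjusted p under 0.05, H3K27ac was higher at 21.7% of 5441 genes shorter than 10 kb, 22.8% of 4565 genes of 10 to 30 kb, 28.5% of 3538 genes of 30 to 100 kb, and 51.1% of 1399 genes of 100 kb or more. The share with more H3K9ac moved little over these bins, from 2.79 to 4.01%. The median log2 difference was 0.03 over all genes. From the shortest bin to the longest it was 0.027, 0.016, 0.016 and 0.29, so it did not rise up to 100 kb. Of all genes tested, 83.4% lay within 0.5 of 0 on the log2 scale. A fold on this scale understates the difference of genes with few base pairs, since 500 bp are added to both sides.

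The base pairs of the 2 libraries of each mark did not overlap, with H3K27ac above, at 43.5% of the genes tested, and with H3K9ac above at 27.1%. A permutation of 2 against 2 libraries cannot give a 2-sided exact p under 0.333, so single genes were compared by the fit over all genes. The calls depended on the libraries: without H3K27ac replicate 1 the counts were 1259 and 19, and without H3K27ac replicate 2 they were 1171 and 37. Without H3K9ac replicate 1 or 2, the number of genes with more H3K9ac was 226 or 214. When each library was scaled to its total autosomal base pairs the median log2 difference became -0.28, and 2197 genes had more H3K27ac and 9679 more H3K9ac. H3K27ac then made up 18.5% of the calls, against 87.7% before scaling. Of the genes higher for H3K27ac, 2182 were so on both scales and 320 changed sides, and all 555 genes higher for H3K9ac remained so. All 120 genes with far more H3K27ac were called on both scales by the same base pairs that chose them.

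Interval numbers gave the same order of the marks. Genes tested held on average 2.12 and 2.17 H3K27ac intervals and 1.67 and 1.67 H3K9ac intervals, with a median of 1 in each library. Both H3K27ac libraries held more intervals than both H3K9ac libraries at 2890 of the genes tested, 19.3%, and the reverse was found at 350, 2.34%. At genes of 100 kb or more the share with more H3K27ac intervals was 44.4%, and at genes under 10 kb 13.8%. After merging intervals within 1000 bp the number of genes with more H3K27ac intervals, 3132 among all autosomal genes, fell to 1932.

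H3K27ac intervals that touched no H3K9ac interval differed from those that touched one. Of 28.3 Mb of H3K27ac in gene windows, 74.4% lay inside H3K9ac, 13.8% lay outside it but in an interval that touched it, and 11.7% lay in intervals that touched none. Between matched replicate numbers these shares were 74.3% ± 1.10, 13.8% ± 0.560 and 11.9% ± 0.544 (SD, n = 2). Of 22.3 Mb of H3K9ac, 94.3% lay inside H3K27ac and 0.746% in intervals that touched none. H3K9ac territory at genes was thus nearly contained in that of H3K27ac. In number, 16036 H3K27ac intervals touched H3K9ac and had a median width of 1378 bp, and 7507 did not and had a median width of 349 bp.

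The other assays, which played no part in these definitions, separated these kinds of H3K27ac interval. H3K27ac base pairs outside H3K9ac but in a touching interval were not described apart. H3K4me3, the methylation mark of promoters, touched 92.4 and 91.5% of the H3K27ac intervals that met H3K9ac (replicates 1 and 2) and 11.9 and 10.5% of those that did not. ATAC-seq intervals touched 71.9 and 75.1% against 11.8 and 14.4%. H3K36me2, a mark of gene bodies and intergenic domains, went the other way with 42.5 and 40.2% against 68.1 and 66.7%. At gene ends lay 73.5% of the former and 32.0% of the latter. The 568 H3K9ac intervals that met no H3K27ac had a median width of 252.5 bp, yet 85.7 and 83.5% touched H3K4me3 and 69.5% lay at gene ends. Width differs between these kinds of interval, and its part in the shares was not tested.

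Around start sites the marks were close but not equal. Over 20063 start sites of 16437 protein-coding genes, 42.3 and 42.3% lay inside H3K27ac and 42.4 and 42.4% inside H3K9ac. At 800 bp into the gene, the position of the widest gap in favour of H3K9ac, the shares were 28.3 and 28.6% for H3K27ac and 31.3 and 31.1% for H3K9ac. Both H3K9ac libraries stood above both H3K27ac libraries at every 100 bp step from 400 to 1500 bp into the gene. H3K27ac stood above from 200 to 5000 bp before the start and from 1900 to 5000 bp into the gene. At 1000 bp before the start the shares were 13.2 and 13.5% for H3K27ac and 12.3 and 12.1% for H3K9ac. Nearest the start the order crossed. Both H3K9ac libraries stood above at the start and 100 bp before it, and both H3K27ac libraries from 100 to 300 bp into the gene. H3K9ac was thus more frequent from 400 to 1500 bp into the gene, and H3K27ac further upstream. The positions were chosen after the profile was seen and carry no test.

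**Figure D4:**
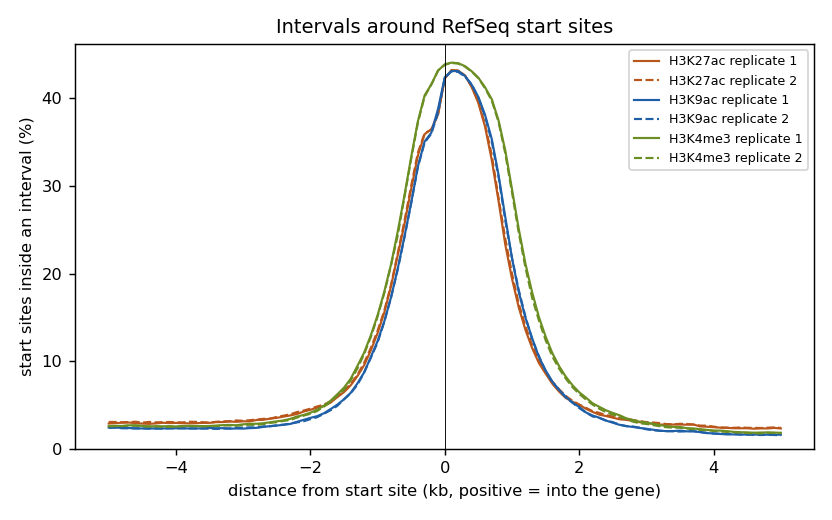
Share of 20063 RefSeq start sites whose position at each distance (kb, positive into the gene) lies inside an interval; solid lines are replicate 1 and dashed lines replicate 2. The lines of H3K27ac and H3K9ac meet at the start near 42.3%, H3K9ac is above at 800 bp into the gene, H3K27ac is above beyond 1900 bp, and H3K4me3 encloses both near the start.

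Among genes with more H3K9ac, the largest excess in the unions was 1598 bp, far below that of H3K27ac. Klhl9, a Cullin 3 adaptor gene, had 2573 and 2870 bp of H3K9ac against 1497 and 1745 bp of H3K27ac. Gli1, a transcription factor of the Hedgehog pathway, had 2051 and 2343 bp against 910 and 890 bp. At both genes the H3K9ac libraries lie above the H3K27ac libraries without overlap, as at 27.1% of all genes tested, and the ratio was larger at Gli1. Sox4, a transcription factor gene of early lymphoid cells, had 5275 and 5204 bp against 3632 and 4145 bp. Jarid2, an accessory subunit of Polycomb repressive complex 2, had 4140 and 4285 bp against 3218 and 3056 bp. Smcr8, Glcci1 and Glyr1 had excesses between 1195 and 1417 bp. H3K4me3 covered still more at Klhl9, Gli1, Sox4 and Jarid2, for example 4043 and 3888 bp at Gli1.

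The 555 genes with more H3K9ac carried H3K4me3 in 99.3 and 99.5% of cases, with a median of 24 CG dinucleotides at their promoters. The 10441 genes without a call carried it in 99.1 and 99.1%, with a median of 20.5, so the H3K4me3 share of the 555 was near that of the uncalled genes. The 3947 genes with more H3K27ac carried it in 89.0 and 88.0%, with a median of 14. H3K36me2 stood at 64.1 and 65.8% of the genes with more H3K9ac, at 89.2 and 88.9% of those with more H3K27ac, and at 76.9 and 77.1% of those without a call. Median gene lengths were 17939, 23995 and 14875 bp in that order, and the part of length in the H3K36me2 shares was not tested.

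Genes with H3K27ac alone held little of it. The union covered 9 to 4103 bp with a median of 594 bp, and 384 of the 594 genes, 64.6%, held a single interval. Of them 231 were protein-coding and 245 were long noncoding RNA genes. Bcar3, an adaptor protein gene, had the most among the named genes with 2756 and 3797 bp. Sorcs2, a sorting receptor gene, had 2489 and 2633 bp, and Galnt18, a gene for O-glycosylation, had 2430 and 2727 bp. Slc15a3, a lysosomal peptide transporter gene, had 2020 and 2216 bp, and Smim3 had 1700 and 1996 bp. Jph2, which encodes a junctional protein of heart muscle, had 1583 and 1556 bp, Myl10, a myosin light chain gene, 1647 and 1798 bp, and Pomgnt2, a glycosyltransferase gene, 1314 and 1800 bp. H3K9ac was 0 bp in both libraries at all 8. H3K4me3 was 0 bp in both libraries at Smim3, Slc15a3, Jph2, Myl10 and Pomgnt2, and reached 445 bp at most, at Bcar3. H3K27me3 domains covered 22840 and 27841 bp of the Bcar3 window and 49794 and 86393 bp of the Sorcs2 window beside the H3K27ac.

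Genes with H3K9ac alone held one short interval and mostly also H3K4me3. The union covered 34 to 840 bp with a median of 366 bp, and 64 of the 77 genes, 83.1%, held a single interval. The count rose to 117 without H3K27ac replicate 2, to 120 and 122 without H3K9ac replicates 1 and 2. It fell to 48 when H3K27ac had to be absent within 10 kb. Leaving out a library drops a condition of the rule and the 10 kb limit adds one, so these directions were fixed. Lhx2, a LIM homeobox gene of neural and limb development, had 609 and 597 bp of H3K9ac, 1228 and 1055 bp of H3K4me3, and 8728 and 16328 bp of H3K27me3. Lrp4, a receptor gene of the neuromuscular junction, had 378 and 427 bp of H3K9ac, with 1502 and 1656 bp of H3K4me3 and 16540 and 13940 bp of H3K27me3. Zswim6, a zinc finger gene, had 522 and 202 bp of H3K9ac, with 94970 and 105190 bp of H3K27me3. At these 3 genes the active marks lie in a window that also holds a Polycomb domain. Mcf2l, a guanine nucleotide exchange factor gene, had 322 and 643 bp of H3K9ac, and Nrep had 573 and 542 bp, both with H3K27me3 in the window. Stx1a, the syntaxin of nerve terminals, had 213 and 479 bp, and Fgf18, a growth factor gene, 373 and 287 bp. Lta4h, which encodes leukotriene A4 hydrolase, had 509 and 591 bp of H3K9ac and, unlike the other 7 named genes, no H3K4me3 in either library. H3K4me3 was also absent at Aurka and Prmt5, the genes of a mitotic kinase and an arginine methyltransferase, whose H3K9ac unions held 441 and 403 bp. They were chosen after their values were seen, and neither H3K27ac nor H3K4me3 is listed anywhere in their windows, so their place among genes with H3K9ac alone is uncertain. Dividing cells use both genes, and why the sets list so little there was not tested.

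The shares of genes with other marks differed between some of the classes. H3K4me3 stood at 98.8 and 98.7% of the genes with both marks, 99.2 and 99.2% of those with far more H3K27ac, 87.0 and 85.7% of those with H3K9ac alone, 20.9 and 18.2% of those with H3K27ac alone, and 1.49 and 1.38% of those without acetylation. ATAC-seq intervals were found at 89.3 and 91.3%, 99.2 and 100%, 29.9 and 37.7%, 31.6 and 33.8%, and 1.83 and 2.27% in the same order. The 2 one-mark classes thus had similar accessibility calls and very different H3K4me3. H3K36me2 stood at 69.0 and 68.7% of the genes with H3K27ac alone and 40.3 and 37.7% of those with H3K9ac alone. H3K27me3 stood at 15.5 and 16.7% of the genes with H3K27ac alone and 28.6 and 27.3% of those with H3K9ac alone. It stood at 8.23 and 8.15% of the genes with both marks and 29.1 and 29.0% of those without acetylation. Among protein-coding genes the one-mark classes lay near each other. The shares were 28.6 and 30.3% for H3K27ac alone, 30.0 and 32.5% for H3K9ac alone, and 8.70 and 8.77% for both marks. Long windows are more likely to hold an interval of any set, and all 120 genes with far more H3K27ac held H3K36me2 in both libraries.

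**Figure D5:**
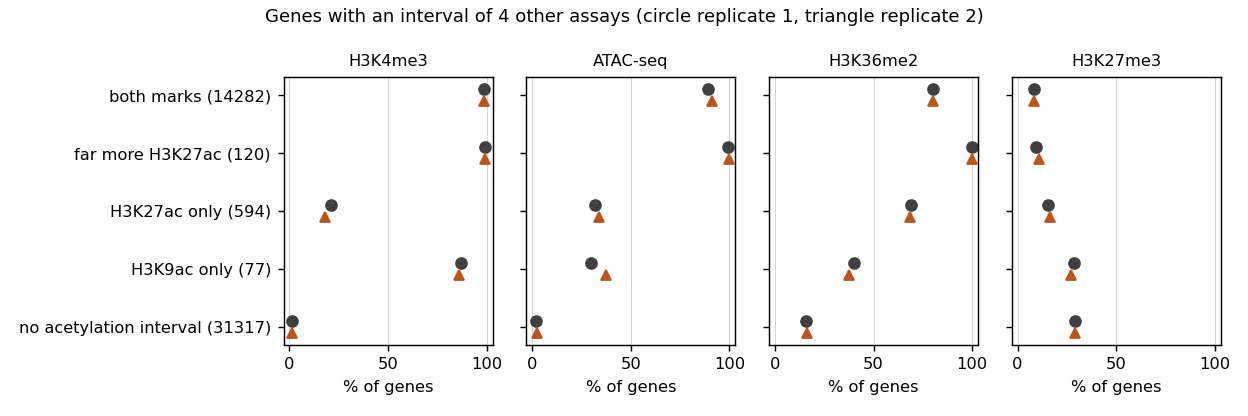
Percent of genes in each class with at least 1 interval of H3K4me3, ATAC-seq, H3K36me2 or H3K27me3 in the window, circles for replicate 1 and triangles for replicate 2, with the number of genes in brackets. H3K4me3 separates H3K9ac alone (87.0%) from H3K27ac alone (20.9%), and ATAC-seq does not.

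Genes of the T lineage, of T cell receptor signalling and of cytokine receptors had more H3K27ac more often than the background of 26.4%. More H3K9ac was found at 3.71% of all genes tested. Of T lineage transcription factor genes, 12 of 22 tested had more H3K27ac and none more H3K9ac, with a median log2 difference of 0.35. Of genes of T cell receptor signalling and the T cell surface, 20 of 26 had more H3K27ac and none more H3K9ac, with a median of 0.44. Of cytokine receptor and JAK-STAT genes the count was 10 of 24, with none for H3K9ac and a median of 0.17. On the scaled values the medians were -0.04, 0.08 and -0.15, so the first and the last changed sign, while the median of all genes was -0.28. In lists of this size, no gene with more H3K9ac is near the 3.71% of all genes tested. Genes tested in these lists had median lengths of 81597.5, 29130.5 and 25655.5 bp, against 16739 bp for all genes tested. The part of length was not tested. Shares above the background were not particular to T cell genes. Histone acetyltransferase and deacetylase genes reached 40.7%, near the 41.7% of the cytokine receptor list, and the B lineage and myeloid lists 40%, with 5 genes tested in each.

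Cd6, a T cell adhesion receptor gene, had 2503 and 2617 bp of H3K27ac against 418 and 390 bp of H3K9ac, a log2 difference of 1.76 (limma, adjusted p = 0.000511). Cd2, another adhesion receptor gene, had 4434 and 4181 bp against 1034 and 1274 bp, a log2 difference of 1.54 (limma, adjusted p = 0.000868). At both genes the base pairs of both H3K27ac libraries exceed those of both H3K9ac libraries, as at 43.5% of all genes tested. Cd6 had 1 interval in every library, so there the H3K27ac interval covered more of the window. Whether the intervals of the 2 marks lie at the same place was not tested. Tcf12, which encodes the E protein HEB, had 8929 and 8454 bp against 3664 and 3635 bp and belonged to the 120. Lck, the kinase of the T cell receptor, had 5749 and 5769 bp against 3548 and 3395 bp, a log2 difference of 0.66 (limma, adjusted p = 0.000941). Tcf7, which encodes the T cell factor TCF1, had 17601 and 17355 bp against 13476 and 14919 bp, and on the scaled values its log2 difference turned from 0.29 to -0.10. Cd3e, a chain of the receptor, had 2011 and 1947 bp against 1501 and 1943 bp, and did not pass the test. Gata3, a transcription factor gene of the T lineage, had 10130 and 10291 bp against 10157 and 10321 bp, and is given as a T lineage gene with equal coverage, chosen after its values were seen.

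Among cytokine receptor genes, Il18r1 had 4313 and 3553 bp of H3K27ac against 1366 and 1207 bp of H3K9ac, and Il12rb1 had 5640 and 5891 bp against 2551 and 2479 bp. Stat3, a transcription factor downstream of such receptors, had 9003 and 8908 bp against 5814 and 4763 bp. Their log2 differences were 1.31, 1.06 and 0.71 (limma, adjusted p = 0.00178, 0.000545 and 0.00745). In all 3 both H3K27ac libraries lie above both H3K9ac libraries, as at 43.5% of all genes tested. The 3 were named for having the largest differences in their list.

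Genes that write and erase acetylation were mixed, with 11 of 27 tested higher for H3K27ac and 2 for H3K9ac, 40.7 and 7.41% against 26.4 and 3.71% of all genes tested, and a median log2 difference of 0.05. Hdac9, a class IIa deacetylase gene, had 6881 and 7151 bp against 2929 and 2805 bp. Hdac7, a deacetylase gene of the same class active in thymocytes, had 13742 and 15871 bp against 7893 and 6789 bp. Ncoa3, a nuclear receptor coactivator gene, had 7913 and 7296 bp against 4002 and 4088 bp. The log2 differences were 1.16, 0.97 and 0.83 (limma, adjusted p = 0.000539, 0.00385 and 0.00105).

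The groups of ribosomal, proteasome and respiratory chain genes lay below the background of 26.4%. Of 68 cytosolic ribosomal protein genes tested, 2 had more H3K27ac and 1 more H3K9ac, and of 75 on the list 6 held no interval of either mark. Of 34 proteasome genes 3 had more H3K27ac and 1 more H3K9ac, and of 59 respiratory chain genes 7 and 0. Their median log2 differences were -0.00, -0.01 and -0.02, and on the scaled values -0.34, -0.31 and -0.33. The genes tested had median lengths of 3203, 11930 and 7279 bp, against 16739 bp for all genes tested, and the part of length was not tested. Of 37 DNA replication genes, 9 had more H3K27ac, 24.3%, which is near the background of 26.4%. More H3K9ac was found at 3 of them, 8.11%, against 3.71% of all genes tested, and their median was 0.03. Actb and Gapdh, the usual reference genes, had 6431 and 6554 bp of H3K27ac against 6061 and 5820 bp of H3K9ac, and 5261 and 5491 bp against 4977 and 4776 bp, and neither passed the test.

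Single members of these groups departed from them. Prim2, a primase subunit gene of 216 kb, had 9258 and 9368 bp of H3K27ac against 3508 and 3516 bp of H3K9ac and belonged to the 120. Psmc1, an ATPase subunit gene of the proteasome, had 3464 and 3756 bp against 1920 and 1511 bp, and Sdhb, of succinate dehydrogenase, 3536 and 3749 bp against 1826 and 1507 bp. Rpl41, a ribosomal protein gene, had 508 and 383 bp of H3K27ac and none of H3K9ac or H3K4me3. Its value is uncertain: ribosomal protein genes have near-identical copies in the genome, and only unique alignments were kept. Rpl31 had 1912 and 1969 bp of H3K27ac against 2195 and 2500 bp of H3K9ac, and did not pass the test. It passed without H3K9ac replicate 1, with a log2 difference of -0.30 against -0.22.

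Of developmental transcription factor genes outside the T lineage, 28 of 34 on autosomes held no acetylation interval and 4 could be tested. None of the 4 had more H3K27ac and 2, Lhx2 and Hand1, had more H3K9ac, against 26.4 and 3.71% of all genes tested. Hand1 had 1074 and 1149 bp of H3K9ac against 915 and 907 bp of H3K27ac, a log2 difference of -0.19 (limma, adjusted p = 0.0498). The Hand1 call lies just under the threshold of 0.05 and was lost without any one of the 4 libraries, with log2 differences of -0.22 to -0.16. Hoxd13 had 1433 and 1442 bp of H3K9ac against 1443 and 1442 bp of H3K27ac, and Pax6 and Neurod1 held neither mark.

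Of B lineage genes 5 of 15 could be tested and 2 had more H3K27ac. Igll1 and Vpreb1, the surrogate light chain genes, had 506 and 567 bp against 0 bp and 1900 and 1634 bp against 1082 and 1136 bp. Of myeloid genes 5 of 15 could be tested and 2 had more H3K27ac. Spi1, which encodes PU.1, had 1703 and 1830 bp against 1192 and 1185 bp, and Itgam, an integrin gene, 1517 and 1585 bp against 759 and 913 bp. With 5 genes tested in each list, 2 are 40%, against 26.4% of all genes tested. In neither list had a gene more H3K9ac, which with 5 genes is near the 3.71% of all genes tested.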

How the data were processed

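ChIP-seq intervals of H3K27ac and H3K9ac in EL4 cells were analysed together with those of H3K4me3, H3K36me2 and H3K27me3 and with ATAC-seq, each in 2 libraries. Per the labels and the study's methods, the authors aligned reads to GRCm38 with STAR 2.5, kept unique alignments, treated duplicates with Picard and called narrow intervals with macs2, without a local background and with the input as control for ChIP-seq. The broad domains of H3K36me2 and H3K27me3 were called with Epic. The deposited lists hold the positions of called intervals per library, with no count, signal or p-value, so depth is unknown and no interval that needs it was computed. The 15 samples also include an input and 2 RNA-seq libraries, which were left out because they were not used here.

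Base pairs and intervals were counted per RefSeq gene window (GRCm38.p6, 3 kb added on each side, autosomes) in Python 3.11.15 with numpy 2.4.6 and pandas 2.3.3, and were checked against bedtools. Overlapping intervals of replicates were merged into unions, and intervals touched when they shared 1 bp. Base pairs were compared with limma 3.58.1 in R 4.3.3, with trended and robust variance, on log2(base pairs + 500) without a replicate block, for genes with a mean of at least 200 bp, with Benjamini-Hochberg adjustment over all genes tested and a threshold of 0.05. The fit was tested on simulated data. Gene windows carry no strand, except for start sites and promoters, which come from RefSeq promoter sequences.

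Named were protein-coding genes with an approved symbol: the 10 largest union differences among genes with far more H3K27ac, the 8 largest H3K9ac excesses, the 8 genes with most base pairs in each one-mark class, 3 per gene list with the largest absolute log2 difference, the genes nearest to the thresholds and 8 reference genes. Where windows overlapped, the gene with the larger value was named. Genes that the rule picked but the text omits are not reported here. The classes and gene lists were chosen with earlier results of these data known. Groups came from the antibody named in the labels. Alternatives varied the pseudocount, filter, scaling, replicate block, gene window, minimum width, merging, thresholds and libraries.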

Additional observations from a re-analysis of the deposited data

Results flagged for a closer look

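The lists hold signal outside the comparisons above, on chromosome X and on unplaced scaffolds. The study's methods state that reads on the sex chromosomes were discarded, yet the H3K27ac libraries list 724 and 732 intervals on chromosome X, with 2.25% of the base pairs on it in each, and the H3K9ac libraries list 585 and 589, with 2.47 and 2.48%. On scaffolds the H3K27ac libraries list 108 and 113 intervals and the H3K9ac libraries 122 and 120. A single scaffold, JH584304.1, holds 62 and 64 of the former and 66 and 63 of the latter. None of these intervals entered a gene count.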

How the results depend on the processing

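The gene counts follow from interval positions, so the depth of each library, which is unknown, sets a limit to all of them. Scaling to the library total gave 2197 genes with more H3K27ac and 9679 with more H3K9ac in place of 3947 and 555, and 21 genes with far more H3K27ac in place of 120; by construction it removes the larger H3K27ac territory. Gene ends alone gave 2043 genes with more H3K27ac base pairs, 1 with far more and 1683 with more intervals. These small windows leave little room for the 5000 bp of the rule for far more H3K27ac. Intervals of at least 500 bp gave 2576 genes with more H3K27ac base pairs, 2068 with more intervals, and 12.5% of H3K27ac base pairs in intervals that touch no H3K9ac. Merging within 1000 bp gave 1932 genes with more intervals. Protein-coding genes alone, a smaller set by construction, gave 231 genes with H3K27ac only and 40 with H3K9ac only. Asking for no H3K27ac within 10 kb left 48 genes with H3K9ac only. Union differences of 3000 and 10000 bp gave 264 and 28 genes with far more H3K27ac, and ratios of 1.5 and 3 times gave 216 and 24.

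Leaving out each library in turn gave 1171 to 3262 genes with more H3K27ac base pairs, 19 to 226 with more H3K9ac, 107 to 122 with H3K9ac only, and 10.2 to 13.2% of H3K27ac base pairs in intervals that touch no H3K9ac. The genes with H3K27ac only came to 676 to 731 in place of 594. Leaving out a library drops a condition from the one-mark rule, so both one-mark counts could only stay or rise. Genes with far more H3K27ac ranged from 90 to 153. With 1 library left for a mark, it is assumed to vary like the other mark.

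Libraries with the same replicate number did not deviate together (r = 0.00995 over 14943 genes, across genes), so they share only a number. With the replicate block the counts were 3849 and 428. Among named genes it moved Rpl31 past the threshold and Hand1 out of it.

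Of 880 values of 71 named genes under the alternatives, 764 kept direction and call, 88 lost the call, 8 gained one and 20 changed sign; the cause was not tested. At gene ends alone the log2 difference was -0.12 at Myo1e, -0.13 at Clec16a, -0.12 at Immp2l, -0.064 at Pip4k2a, -0.056 at Tcf12, -0.034 at Prim2 and -0.12 at Vipr2. In the gene span alone it was -0.015 at Ndufa10, -0.0072 at Atp5d, -0.043 at Actb and -0.19 at Cd3e. Scaled to the library total it was -0.020 at Psma6, -0.035 at Atp5d, -0.23 at Pax3, -0.22 at Csf3r, -0.25 at Actb, -0.24 at Gapdh, -0.15 at Cd3e, -0.10 at Tcf7 and -0.29 at Hoxd13.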
